A study of Mus musculus with 14 samples.

Results

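The C1q and tumour necrosis factor related genes (C1qtnf, protein name CTRP) were followed in mouse Ocy454 cells through 8 members: C1qtnf1, C1qtnf2, C1qtnf3, C1qtnf4, C1qtnf5, C1qtnf6, C1qtnf7 and C1qtnf12. The group was selected on the day 14 and day 1 values of C1qtnf3, which had the lowest log2 difference of the 12725 genes tested between those days, so that contrast is given here as a description without a test. The members are 8 of the 39179 genes of the differentiation table and 8 of the 35886 genes of the sorted libraries. C1qtnf12 stands in the differentiation table under its older symbol Fam132a and was matched by gene identifier.

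Ocy454 is a conditionally immortalized mouse osteocyte-like line that carries a thermosensitive large T antigen, divides at a permissive temperature and differentiates at 37 °C. The differentiation experiment sampled unsorted cells on day 1, day 7, day 10 and day 14 at that temperature, in 2 biological replicates. In the second experiment, cells kept for 17 days at 37 °C were labelled with a CD61 antibody, and the 10% of live cells with the most label (CD61 high) and the 10% with the least (CD61 low) were collected, with 3 replicates each. Poly(A) RNA was sequenced in all 14 libraries. No group carried a gene deletion or a drug. All libraries came from this line, so replicates are not separate animals. By the methods, both sorted tails were taken from 3 independent groups of cells, and the cells between the sorted tails were not sequenced.

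C1qtnf proteins are secreted. Most have a signal peptide, a collagen-like stretch and a globular C1q domain at the C-terminal end, the architecture of adiponectin, and they assemble into trimers and larger complexes. They are best known as endocrine and local factors from fat and other stromal tissue that act on glucose and lipid handling, on complement and on growth of cartilage and vessel cells. Through the C1q domain they are related to adiponectin, the complement C1q chains, cerebellins, emilins and the short-chain collagens.

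Total reads per differentiation library were between 27518605 and 34311238, and estimated counts per sorted library between 18815602 and 19220064. The label osteocyte-like was checked on its markers. Mean CPM (the share of a library's reads, scaled as counts per 1000000) of Dmp1 went from 0.959 at day 1 to 54.9 at day 14, that of Phex from 0.964 to 93.9, and that of Sost from 0 to 17.7. Of the 8 osteocyte and osteoblast markers, 7 had a higher mean at day 14 than at day 1, while Col1a1 (collagen I) went from 34709 to 25242 CPM and the sum from between 35448 and 35501 to between 29461 and 34629 CPM. Itgb3, the gene of CD61, had a mean of 5.65 normalized CPM in CD61 low and 111 in CD61 high cells. Of 6 adipocyte markers, Cidec, Lep and Pck1 were at 0 in every library and the summed level never exceeded 0.755 CPM. Of 6 macrophage markers, Adgre1 and C1qa were at 0 in every library and the sum was between 1.74 and 5.09 CPM during differentiation.

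The sequences before the annotated start sites of C1qtnf3 and C1qtnf6 are shown because both genes lie on chromosome 15 and both were lower at each later day. A RefSeq promoter entry (GRCm38.p6) matched 5 of the 8 members (C1qtnf2, C1qtnf3, C1qtnf5, C1qtnf6 and C1qtnf7). Each run holds the 250 bases before the start, 5′ to 3′ on the gene's strand, with matches on either strand in capitals. The motifs searched were TATAAA as the TATA box, CCAAT as the CCAAT box, GGGCGG as the GC box, TGANTCA as the AP-1 motif, ACGTG as the core of hypoxia response elements and TGTGGT as the core bound by RUNX factors. The C1qtnf3 run is chr15:10952082-10952331 on the plus strand and the C1qtnf6 run is chr15:78529652-78529901 on the minus strand.
C1qtnf3: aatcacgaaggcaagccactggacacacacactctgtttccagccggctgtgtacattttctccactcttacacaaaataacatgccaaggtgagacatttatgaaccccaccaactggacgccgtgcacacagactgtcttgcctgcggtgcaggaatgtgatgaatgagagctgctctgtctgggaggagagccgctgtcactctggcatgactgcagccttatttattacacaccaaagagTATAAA
C1qtnf6: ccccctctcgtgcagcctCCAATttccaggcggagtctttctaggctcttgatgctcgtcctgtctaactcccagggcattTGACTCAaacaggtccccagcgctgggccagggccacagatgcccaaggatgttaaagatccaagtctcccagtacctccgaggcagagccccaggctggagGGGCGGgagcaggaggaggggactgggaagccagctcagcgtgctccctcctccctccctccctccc
The C1qtnf3 run held 1 match, TATAAA, directly before the annotated start, and 12.4% of all 32851 RefSeq runs of this length held TATAAA. The C1qtnf6 run held CCAAT (33.8% of all runs), TGANTCA as TGACTCA (6.75%) and GGGCGG (32.7%), and no TATAAA. None of these matches overlapped another. The G and C content was 49.2% for C1qtnf3 and 62.8% for C1qtnf6, against a median of 52.4%. These matches describe letters and were not tested for function.

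C1qtnf3 was abundant in cells at day 1 and nearly gone at day 14. It encodes CTRP3, also called cartducin, known as a growth factor for cartilage precursors and as an adipokine. The gene (ENSMUSG00000058914) lies at chr15:10952290-10980238 in GRCm39, plus strand. The day 1 libraries held C1qtnf3 at 172 and 179 CPM, the day 7 libraries at 14.5 and 13.3, the day 10 libraries at 4.76 and 4.64, and the day 14 libraries at 2.27 and 2.54. The days did not overlap, and each later day was below the one before. With 2 libraries a day and no share of all genes counted, nothing is read from such separation, here or for the members below. Mean C1qtnf3 was 175 ± 4.89 CPM (SD, n = 2) at day 1 and 2.41 ± 0.191 at day 14, which is 72.7-fold lower and a Log2FC of -5.69 on the log2(CPM + 1) scale. The day 14 value rested on 148 reads over both libraries.

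The largest step of C1qtnf3 lay between day 1 and day 7, where the later mean was 12.6-fold lower (Log2FC -3.56, description only). From day 10 to day 14 it was 1.95-fold lower (Log2FC -0.74, description only). The step from day 7 to day 10 compares libraries other than those that selected the gene. C1qtnf3 fell 2.97-fold in it, with a Log2FC of -1.39 ± 0.10 (SE, limma adjusted p = 6.65e-10) in a fit of only these 4 libraries. The fit over all 8 libraries, which takes its spread from the selecting libraries too, gave an SE of 0.08 and an adjusted p of 3.34e-13. In that step it ranked 29 from the lowest of 12725 genes. In bulk RNA, fewer cells that express a gene and less of its RNA per cell cannot be told apart. The 7 chondrocyte markers did not move as 1 group. Their sum was 103.7 to 106 CPM at day 1 and between 170 and 189 CPM at day 14, and none was at 0 in any group. Matn3 (matrilin 3) and Comp (cartilage oligomeric matrix protein) had lower means at day 14, with 8.12 against 0.495 CPM for Matn3 and 4.68 against 1.43 CPM for Comp. The other 5 had higher means, chiefly Hapln1 (11.9 and 65.2 CPM) and Acan (60.0 and 84.0 CPM). Their part in the result was not tested.

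**Figure D1:**
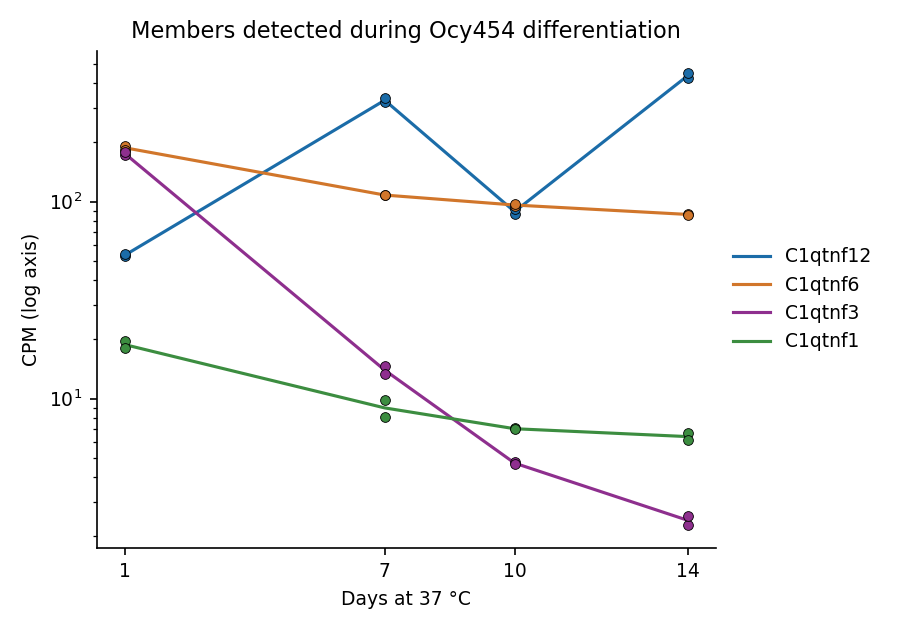
CPM (log axis) of the 4 members with reads during differentiation against days at 37 °C; points are libraries and lines join the means of 2 libraries. C1qtnf3 went from a mean of 175 to 2.41 CPM, while C1qtnf12 moved up, down and up again between 53.5 and 436 CPM.

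C1qtnf12 ended higher than it began and did not move steadily. It encodes CTRP12, or adipolin, known as an insulin-sensitizing secreted factor. The gene (ENSMUSG00000023571) lies at chr4:156046736-156051087, plus strand. At day 1 the libraries gave C1qtnf12 values of 52.9 and 54.0 CPM. Day 7 gave 319 and 335 CPM, day 10 gave 86.0 and 91.9 CPM, and day 14 gave 424 and 448 CPM. No libraries of different days overlapped, and the day 10 libraries sat between day 1 and day 7. Nothing is read from the lack of overlap, with 2 libraries a day.

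C1qtnf12 rose 6.12-fold from day 1 to day 7, with a Log2FC of 2.59 ± 0.04 (SE, limma adjusted p = 2.44e-26). It then fell 3.68-fold to day 10 (Log2FC -1.87 ± 0.04, limma adjusted p = 1.91e-21), and ranked 8 from the lowest of the 12725 genes. From day 10 to day 14 it rose 4.90-fold (Log2FC 2.28 ± 0.04, limma adjusted p = 1.37e-23). The day 14 mean was 8.15-fold above day 1 (Log2FC 3.00, description only). The pattern of a called rise at day 7, a called fall at day 10 and a called rise at day 14 was met by C1qtnf12 and by no other member, and by 33 genes in all, 0.259% of those tested. Over the alternatives that number was between 27 and 76, with 65 at a pseudocount of 0.1 and 76 with edgeR on the recovered reads.

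C1qtnf6 kept a high level throughout and was lower at each later day. It encodes CTRP6, known to inhibit the alternative complement pathway. The gene (ENSMUSG00000022440) lies at chr15:78407546-78415616, minus strand. C1qtnf6 started from 192 and 183 CPM at day 1. It stood at 108 CPM in both day 7 libraries, then at 94.9 and 97.2 CPM on day 10, and ended on day 14 with 86.9 and 85.1 CPM. The days did not overlap, from which nothing is read at 2 libraries a day. Its Log2FC was -0.79 ± 0.04 from day 1 to day 7 (SE, limma adjusted p = 3e-15), -0.17 ± 0.04 from day 7 to day 10 (adjusted p = 0.00109) and -0.16 ± 0.04 from day 10 to day 14 (adjusted p = 0.00168). Each step passed the adjusted p threshold of 0.01 but stayed within a log2 difference of 1, the second condition for a call. The p of the later steps depended on the setting. From day 10 to day 14 the adjusted p was 0.0430 with TMM scaling, 0.0246 after quantile normalization, 0.0539 with edgeR, 0.0210 without the limma trend, 0.0228 without day 10 replicate 2 and 0.0105 without day 14 replicate 2. From day 7 to day 10 the limma adjusted p was 0.0180 without the trend, 0.0107 without day 7 replicate 1 and 0.0163 without day 10 replicate 1. Over the whole course the mean was 2.18-fold lower (Log2FC -1.11, description only).

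C1qtnf1 was the least abundant of the 4 at day 1. It encodes CTRP1, known to bind collagen and limit platelet aggregation on it. The gene (ENSMUSG00000017446) lies at chr11:118318941-118342605, plus strand. C1qtnf1 was measured at 19.5 and 18.1 CPM on day 1. Later libraries had 8.07 and 9.86 CPM (day 7), 7.06 and 6.99 CPM (day 10) and 6.67 and 6.14 CPM (day 14). The day 1 libraries stood clear of all others, and the later days lay close together. The Log2FC from day 1 to day 7 was -0.99 ± 0.10 (SE, limma adjusted p = 2.76e-09), just short of the log2 threshold of 1. With edgeR on the recovered reads it was -1.03 and passed. The 2 later steps were -0.31 ± 0.10 (adjusted p = 0.0114) and -0.12 ± 0.10 (adjusted p = 0.322), and neither passed. The first of them depended on the setting, above all on the day 7 libraries. Without day 7 replicate 1 it was -0.44 (limma adjusted p = 0.00351) and without day 7 replicate 2 it was -0.18 (adjusted p = 0.220). TMM scaling (adjusted p = 0.00336), quantile normalization (0.00151), edgeR on the recovered reads (0.00369) and a filter at a mean of 5 CPM (0.00999) also took it past 0.01, and none past a log2 difference of 1. Day 14 was 2.93-fold below day 1 (Log2FC -1.42, description only).

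C1qtnf2, C1qtnf4, C1qtnf5 and C1qtnf7 had 0 reads in all 8 differentiation libraries. Over the 250823570 reads together, a count of 0 allows a level of up to 0.0120 CPM each (3 reads), counting error only. C1qtnf2 (chr11:43364958-43382494) and C1qtnf7 (chr5:43672820-43776806) encode adipokines studied in fat and liver metabolism, and C1qtnf4 (chr2:90715215-90721872) encodes a member with a pair of C1q domains that is known from the hypothalamus. C1qtnf5 (chr9:44018524-44020484), known from the retinal pigment epithelium, lies wholly inside Mfrp on the same strand and opposite Rnf26. How reads shared by overlapping genes were counted is not given in the sources used here, so its 0 is uncertain. Rnf26 had 14.0 to 18.8 CPM and Mfrp 0.060 to 0.408 CPM. C1qtnf3 is covered over its full length by the lncRNA gene Gm34315 on the opposite strand and C1qtnf12 over 26.5% by Gm68249; without stated strandedness, reads of a gene and its antisense partner cannot be told apart. Other genes opposite a member were Gm11747 over 32.0% of C1qtnf1 (at most 0.07 CPM), Gm49380 over all and Gm20444 over 80.5% of C1qtnf5 (Gm20444 at 0), and Gm15866 over 49.8% of C1qtnf7 (at 0). Gm71753 (C1qtnf1), Gm74762 (C1qtnf4) and Gm49490 (C1qtnf6) lay opposite and Gm43022 and Gm43023 (C1qtnf7) on the same strand, each over at most 13.6% of the member.

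Calls among the members were set against those of all genes. A call required both an adjusted p under 0.01 and a log2 difference beyond 1 in either direction. Between day 1 and day 14, the contrast that selected the group, C1qtnf12 was past these limits upwards and the other 3 tested members downwards, and 7.51% and 5.90% of all genes were called higher and lower; nothing is read from that count. From day 1 to day 7, 1 was called higher (4.49% of genes), C1qtnf12, and 1 lower (4.62%), C1qtnf3, the latter as a description. From day 7 to day 10, none of the 4 was called higher (1.43%) and 2, C1qtnf3 and C1qtnf12, were called lower (0.786%). TMM scaling of the CPM moved the split of all genes in this step from 182 higher and 100 lower to 145 and 127, and quantile normalization moved it to 131 and 132. The share of all genes was larger in other settings: in this step 2.62% of genes were called higher and 1.70% lower with edgeR on the recovered reads, and 2.96% and 1.38% with a pseudocount of 0.1, where the members' count stayed at 0 and 2. From day 10 to day 14, 1 member, C1qtnf12, was called higher (2.09%) and none lower (0.872%). At an unadjusted p below 0.05 in limma, 4 members differed in the step to day 10 and, C1qtnf3 apart, 2 in the step to day 14. The share of all genes at that p was not counted, so nothing is read from these numbers. With edgeR on the recovered reads, likewise none was called in the directions with a count of 0. The other 4 members had no reads and could not be tested.

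**Figure D2:**
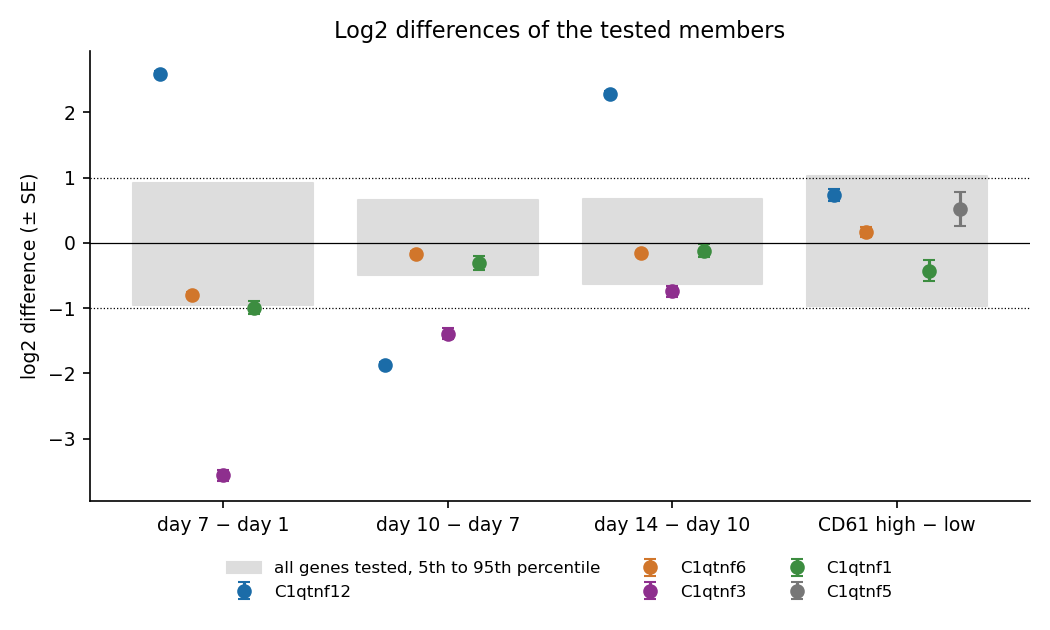
Log2 difference (± SE) of each tested member in the 3 steps of differentiation and between CD61 high and CD61 low cells; grey boxes span the 5th to 95th percentile of all genes tested and dotted lines mark log2 differences of 1 and -1. C1qtnf12 lay outside the box in all 3 steps of differentiation and every member inside it in the sorted cells. C1qtnf3 lay below the box in the step from day 7 to day 10; its other steps share libraries with the contrast that selected it and are drawn as a description only.

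Compared per length, the order of the members turned over during differentiation. On the scale of CPM per kb of exon length, the day 1 means were 64.1 ± 1.79 (SD, n = 2) for C1qtnf3, 46.6 ± 1.73 for C1qtnf6, 40.9 ± 0.620 for C1qtnf12 and 5.88 ± 0.314 for C1qtnf1, with no overlap between libraries of neighbours in the order. At day 14 they were 333 ± 13.0 for C1qtnf12, 21.4 ± 0.315 for C1qtnf6, 2.01 ± 0.118 for C1qtnf1 and 0.882 ± 0.0700 for C1qtnf3, again without overlap. Nothing is read from the lack of overlap at 2 libraries a day. The share of C1qtnf12 in the summed CPM per kb of all 8 members went from 26.0% (day 1) to 87.8% (day 7), 71.0% (day 10) and 93.2% (day 14). The share of C1qtnf3 was 40.7% at day 1 and 0.247% at day 14. Without the division by length, C1qtnf6 was the highest member at day 1 and at day 10.

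**Figure D3:**
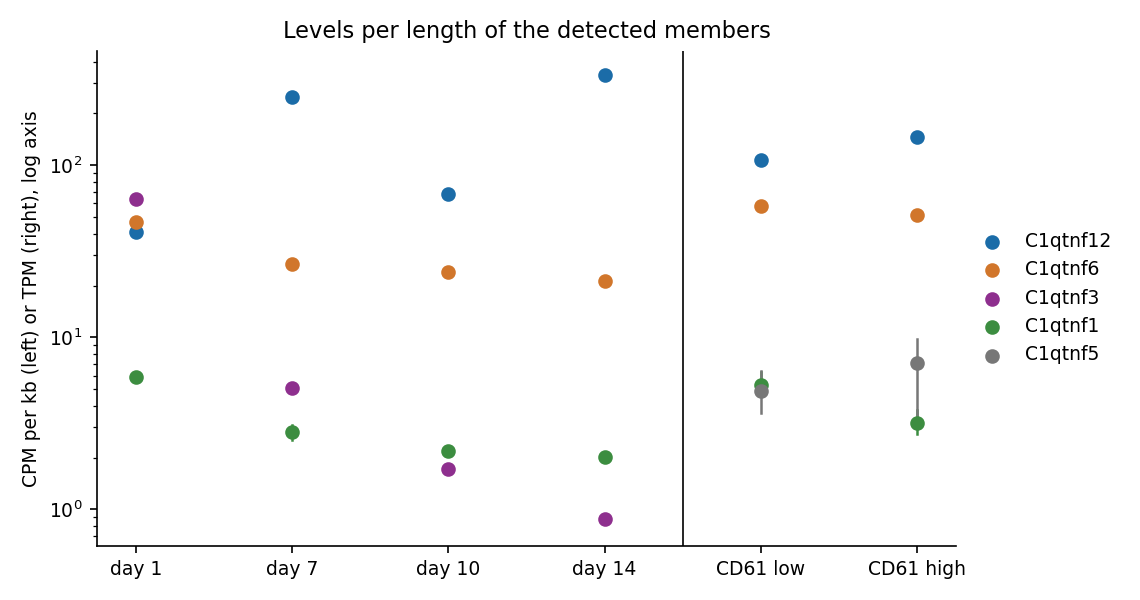
Mean level per length (log axis) of the detected members, as CPM per kb in the 4 differentiation groups (left of the line) and TPM in the sorted groups (right); vertical bars span the lowest and highest library, and C1qtnf3 is left out at the right because libraries of both sorted groups were at 0. The 2 scales were made separately and are not compared; C1qtnf12 was the highest member in every group but day 1.

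The genes most like the 3 declining members were found by the root mean square distance of mean-centred log2(CPM + 1) over the 8 differentiation libraries, among the 10313 genes whose mean reached 5 CPM. Nearest to C1qtnf3 were Ogn (a small leucine-rich proteoglycan, distance 0.74), Npr3 (the clearance receptor of natriuretic peptides, 0.75), Col3a1 (fibrillar collagen III, 0.79), Plscr2 (0.81) and Col6a5 (a collagen VI chain, 0.83). Ogn went from a mean of 627 CPM at day 1 to 52.0, 20.01 and 38.8 CPM, so it turned up at day 14 where C1qtnf3 did not. Col3a1 went from 3326 to 510, 309 and 280 CPM. Distances for C1qtnf6 were smaller, with Nfix (a transcription factor) at 0.059, Lrig3 at 0.061 and Flna (filamin A) at 0.065. For C1qtnf1 they were 0.088 for Abcc5 (a membrane transporter), 0.097 for Haus7 and 0.098 for Insyn1.

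In sorted cells, C1qtnf12 was higher where surface CD61 was high. This comparison used other cells than those that selected the group, and all values are TMM-normalized CPM of estimated counts. C1qtnf12 measured 72.1, 60.3 and 61.2 in CD61 low and 97.5, 112 and 112 in CD61 high libraries. The groups did not overlap. The mean was 64.5 ± 6.59 (SD, n = 3) against 107 ± 8.37, which is 1.66-fold higher, with a Log2FC of 0.73 ± 0.09 (SE, edgeR quasi-likelihood adjusted p = 0.000107). It passed the adjusted p threshold but not the log2 difference of 1. Over the alternatives tried the Log2FC was between 0.43 and 0.81 and the adjusted p between 1.01e-10 and 0.00194.

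C1qtnf1 was lower in CD61 high cells by a smaller margin. Its libraries measured 6.36, 5.77 and 7.18 in CD61 low and 5.22, 4.55 and 4.59 in CD61 high. The groups did not overlap, and the Log2FC was -0.43 ± 0.16 (SE, edgeR adjusted p = 0.0467), which missed the threshold of 0.01. Over 14 alternatives the Log2FC was between -0.73 and -0.36, with an adjusted p between 0.00238 and 0.133 (edgeR or DESeq2). The lower end of both came from library size alone, which moved the median of all genes to -0.29. C1qtnf6 measured 63.2, 60.6 and 58.0 in CD61 low and 66.5, 73.0 and 64.8 in CD61 high. Those groups did not overlap either, but the Log2FC of 0.17 ± 0.08 did not pass (edgeR adjusted p = 0.0923). Groups without overlap were common in the sort, at 58.0% of the 12077 genes tested, so nothing is read from the separation of 3 of the 4 members. On the TPM scale, which divides by the abundance of all transcripts, the order of C1qtnf6 was the other way, 57.6 ± 1.57 in CD61 low and 51.6 ± 2.23 in CD61 high (SD, n = 3).

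C1qtnf5 was detected in the sorted libraries, with 1.72, 2.30 and 2.34 in CD61 low and 3.58, 3.51 and 2.06 in CD61 high. The groups overlapped, and the Log2FC was 0.52 ± 0.26 (SE, edgeR adjusted p = 0.124). These values rest on 35 to 61.3 estimated counts per library, spread by the quantifier over several C1qtnf5 transcripts. C1qtnf3 had 0, 1 and 0 estimated counts in CD61 low and 4, 6 and 0 in CD61 high, which did not reach the minimum of 5 normalized counts in all 6 libraries. C1qtnf2, C1qtnf4 and C1qtnf7 were at 0 in all 6, which allows up to 0.0264 CPM over the 6 libraries together.

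None of the 4 tested members was called in the sort by edgeR, where 4.84% of all genes were called higher and 4.37% lower in CD61 high cells, and DESeq2 called none. At an unadjusted p below 0.05 in edgeR, 2 members differed. The share of all genes at that p was not counted, so nothing is read from this number. The TMM factors moved with the groups, at 1.10 to 1.13 in CD61 low and 0.895 to 0.909 in CD61 high. With library size alone, the median of all genes was -0.29 and the split of calls went from 585 higher and 528 lower to 316 and 963. Under that scaling C1qtnf12 kept its direction (Log2FC 0.43), C1qtnf1 moved further down (Log2FC -0.73) and C1qtnf6 turned (Log2FC -0.13). The summed level of the 6 macrophage markers was 12.8 to 15.8 in CD61 low and 8.18 to 8.86 in CD61 high, nearly all of it Cd68 (means of 14.2 and 8.07), with Adgre1 and C1qa at 0 in both. All 7 chondrocyte markers had a higher mean in CD61 high cells, and their sum was 47.3 to 60.8 against 114 to 131, with Sox9 at means of 36.7 and 94.5. The sum of the 8 osteocyte and osteoblast markers was 17525 to 21412 against 49895 to 52578, nearly all of it Col1a1 (means of 17664 and 44785). Each of the 8 had a higher mean in CD61 high cells. The part of these markers in the differences of the members was not tested.

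**Figure D4:**
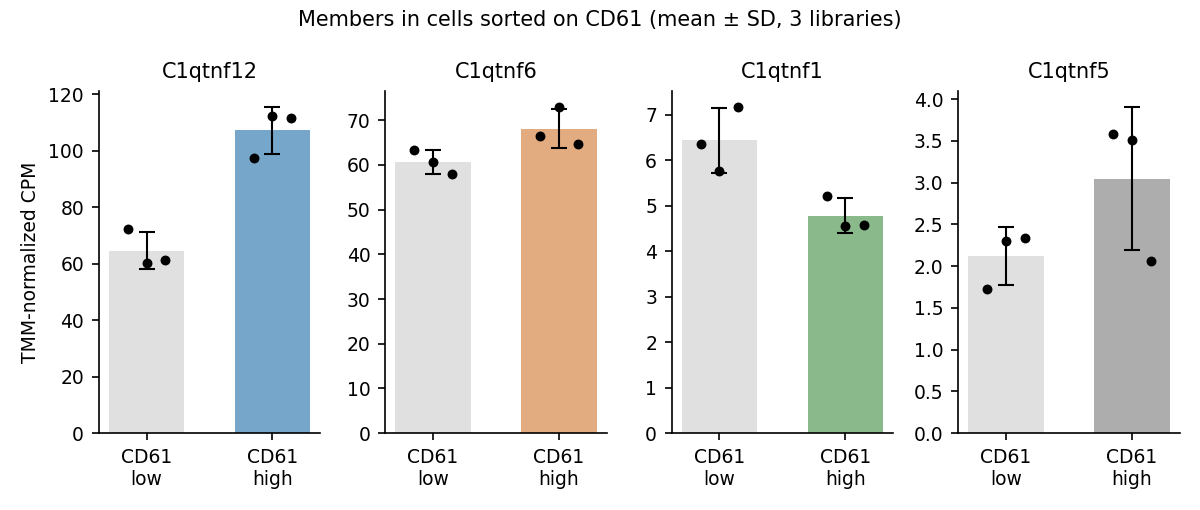
TMM-normalized CPM of 4 members in CD61 low and CD61 high cells, each panel on its own axis from 0; bars are means of 3 libraries, error bars are SD and points are libraries. The C1qtnf12 libraries sat between 60.3 and 72.1 in CD61 low and between 97.5 and 112 in CD61 high, and the C1qtnf5 groups overlapped, where 58.0% of all genes tested had groups without overlap.

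At transcript level, C1qtnf12-201, the coding transcript, carried between 99.3% and 100% of the estimated counts of C1qtnf12 in each sorted library. C1qtnf6 was divided between the coding C1qtnf6-201 (49.5% to 75.3%) and C1qtnf6-203, which has no defined coding sequence (23.8% to 49.9%), and these ranges overlapped between the groups. A further coding transcript, C1qtnf6-204, took 13.3% in CD61 high replicate 1 and 7.25% in CD61 low replicate 3 and was at 0 in the other 4 libraries, so the division of C1qtnf6 between transcripts was not reliable either. C1qtnf1 counts fell almost wholly on C1qtnf1-202 in some libraries and on C1qtnf1-201 in others within the same group, so its transcripts were not separated reliably and only the gene sum is used.

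Among 23 other genes with a C1q domain, 8 passed the filter in each experiment. Over the whole course from day 1 to day 14, Caprin2 and Cbln3 were called higher and Col8a2 and Emilin1 lower (7.51% and 5.90% of all genes). Cbln3 passed the filter of 1 CPM through 1 day 14 library alone (1.69 CPM) and could be tested only because it was high there, so nothing is read from the count of higher genes. With a filter at a mean of 5 CPM, and without day 14 replicate 1, Caprin2 was the 1 gene called higher. Col8a2, a collagen VIII chain, fell 3.32-fold from day 1 to day 7 (597 to 180 CPM; Log2FC -1.72 ± 0.04, limma adjusted p = 5.5e-24). Emilin1, an elastic fibre glycoprotein, fell 2.44-fold in the same step (384 to 158 CPM; Log2FC -1.28 ± 0.04, limma adjusted p = 9.21e-21). These were the 2 called lower in that step (4.62% of all genes). Cbln3 was called higher with a pseudocount of 0.1 (6.55% of all genes) and with edgeR on the recovered reads (6.88%), but not by limma at a pseudocount of 1 (4.49%). It could be tested only through that day 14 library, so nothing is read from these calls.

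Erfe, which encodes erythroferrone, the hormone that lowers hepcidin, showed a dip at day 10 like that of C1qtnf12 but no rise before it. Erfe had 112 and 110.5 CPM on day 1, and 62.7 and 62.4 CPM a week into differentiation. The day 10 libraries had 29.2 and 25.7 CPM, and those of day 14 had 61.9 and 62.1 CPM. Of the 8 genes, it was the 1 called from day 7 to day 10 (Log2FC -1.16 ± 0.05, limma adjusted p = 1.36e-15), where 0.786% of all genes were called lower. It was also the 1 that limma called from day 10 to day 14 (Log2FC 1.15 ± 0.05, adjusted p = 8.79e-16), where 2.09% of all genes were called higher. With edgeR on the recovered reads, 2 were called, Erfe and Cbln3, where 3.96% of all genes were called higher. Cbln3 could be tested only through the same single day 14 library, so nothing is read from its call. Caprin2, an RNA-binding protein with a C1q domain, had a mean of 11.9 CPM at day 1 and 31.0 at day 14 (Log2FC 1.31). Cbln3, a cerebellin, had 0 and 1 reads at day 1 and 58 and 26 at day 14.

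**Figure D5:**
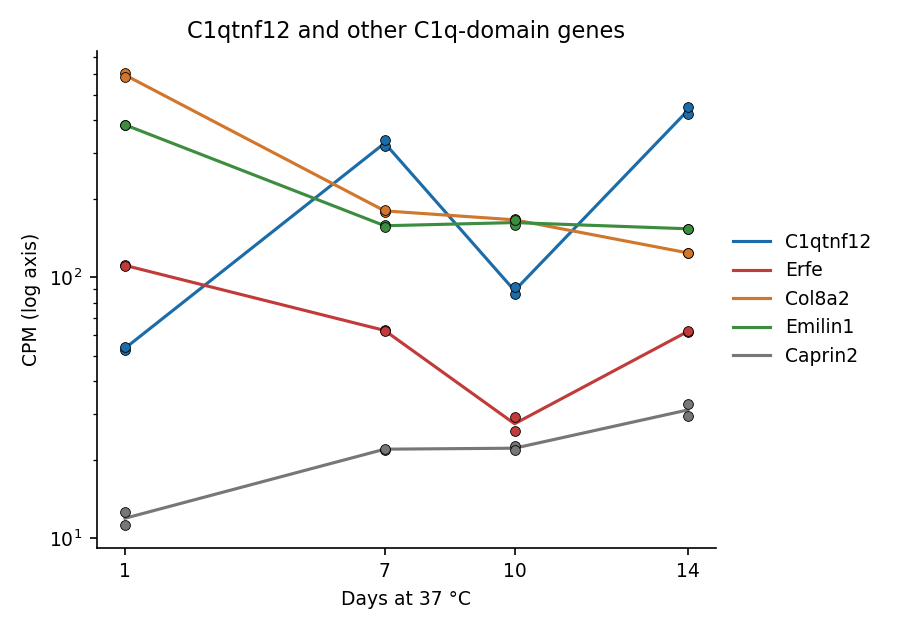
CPM (log axis) of C1qtnf12 and 4 other genes with a C1q domain against days at 37 °C; points are libraries and lines join the means of 2 libraries. C1qtnf12 and Erfe were both lower at day 10 than at days 7 and 14, while Col8a2 and Emilin1 were highest at day 1.

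In the sort, 1 of the 8 C1q-domain genes tested was called in each direction (4.84% higher and 4.37% lower over all genes). Caprin2 was 2.04-fold higher in CD61 high cells (22.2 ± 2.89 against 45.2 ± 5.55 normalized CPM, SD, n = 3; Log2FC 1.03 ± 0.12, edgeR adjusted p = 5.79e-05). That call was close to the log2 threshold and was lost in 4 of 14 alternatives, with library size alone (Log2FC 0.73), without CD61 low replicate 1 (0.97) or 2 (0.97) and without CD61 high replicate 1 (0.93). Col8a1 was 2.32-fold lower (76.8 against 33.1 normalized CPM; Log2FC -1.21 ± 0.15, edgeR adjusted p = 0.000107), a call kept in all 14. Cbln3, which the filter left out, was called higher with no filter, with filterByExpr and with library size alone. Erfe did not pass, with means of 46.2 and 44.8.

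Of 9 receptors and binding partners described for C1q-domain proteins, 5 passed the filter, and none was called in any step of differentiation by limma or by edgeR on the recovered reads. The shares of all genes called in a step and direction were between 0.786% and 4.62% by limma and between 1.70% and 6.88% by edgeR. At such shares a count of 0 in 5 genes is not a result about these genes. At an unadjusted p below 0.05 in limma, 3 of the 5 differed in each step. The share of all genes at that p was not counted, so nothing is read from this either. Adiponectin receptors were well detected. The Adipor2 mean went from 99.5 CPM (day 1) to 122 (day 7), 153 (day 10) and 162 CPM (day 14). In the sort it was the 1 receptor of 5 tested that was called (4.84% of all genes were called higher and 4.37% lower), at 79.5, 77.2 and 80.4 in CD61 low and 163, 154 and 159 in CD61 high, 2.01-fold higher (Log2FC 1.00 ± 0.07, edgeR adjusted p = 1.28e-06). Its Log2FC lay at the threshold and was between 0.70 and 1.03 over 14 alternatives, 9 of which did not call it: library size alone, RLE size factors, TMM after the filter, the transcript length offset, DESeq2, and the fits without CD61 low replicate 2 or 3 or CD61 high replicate 1 or 3. Adipor1 had a mean of 365 in CD61 low and 579 in CD61 high (Log2FC 0.67 ± 0.08, adjusted p = 5.19e-05), below the log2 threshold.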

How the data were processed

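Poly(A) RNA-seq of 14 Ocy454 libraries was analysed. For differentiation, the authors used STAR for alignment and HTSeq for counting, and deposited the CPM of each gene. CPM values were whole multiples of 1 read in 100% of cases (tolerance 0.01), which gave the reads and depth. For the sort, the authors deposited Salmon estimated counts and TPM per transcript (GRCm39); these were summed per gene (at least 99.3% of counts per library matched a gene), and estimated counts were rounded. Table lengths, deposited by the authors, gave CPM per kb. Coordinates are from GENCODE on GRCm39. Library strandedness is not given in the sources used here.

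Differentiation was fitted with limma 3.58.1 (eBayes with trend) on log2(CPM + 1) over all 8 libraries, for the 12725 genes above 1 CPM in at least 1 library; fold changes on this scale understate changes of low genes. The sort was fitted with edgeR 4.0.16 (quasi-likelihood, TMM), for the 12077 genes whose normalized counts reached 5 in each of the 6 libraries. R was 4.3.3. P-values were two-sided and Benjamini-Hochberg adjusted over all genes of a comparison. Both fits were also run on simulated data with as many raised as lowered genes. These did not imitate the group-linked TMM factors of the sort, so nothing about the fits is read from them. Folds in the text are ratios of group means. Replicates differed by more than sampling noise (chi-square per gene of at least 2.35).

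The members and gene lists were chosen with earlier results of these data known. Named were all members, list genes called (up to 4 per list and comparison), the 5 genes most like C1qtnf3 and the 3 most like C1qtnf6 and C1qtnf1, and overlapping genes. Genes of the closing observations were chosen after their values were seen. Alternatives covered scaling, filter, pseudocount, tool (DESeq2 1.42.0), replicate block and leaving out each library. Intervals from counts cover counting error only.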

Additional observations from a re-analysis of the deposited data

How the results depend on the processing

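Of 786 recomputed values, 748 were labelled unchanged, 33 moved, 4 newly passed a threshold and 1 reversed. Unchanged log2 differences kept their direction and call or stayed within the replicate spread. Many of them could not move. The C1qtnf6 Log2FC from day 10 to day 14 was -0.16 in the main fit and identical with no filter, no trend or a replicate block. Counts of genes had a wider margin. Genes called higher from day 1 to day 14 numbered 709 to 1339 over 17 settings, and all 17 were labelled unchanged. The 748 is therefore not read as a measure of robustness. The reversed value was C1qtnf6 in the sort, with a Log2FC of -0.13 under library size alone (edgeR adjusted p = 0.167). The day 14 minus day 1 Log2FC of C1qtnf3 was -6.13 with a pseudocount of 0.1, -5.77 after quantile normalization and -6.15 with edgeR on recovered reads. Of all genes, 6.22% were called lower from day 1 to day 7 with a pseudocount of 0.1 and 6.03% with edgeR. The main fit called 4.62% lower. Beside C1qtnf3, the number of members called lower from day 1 to day 7 was 1, C1qtnf1, with a pseudocount of 0.1 and with edgeR, and 0 to 1 when a library was left out (1 without day 1 replicate 2 or day 7 replicate 2).

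Counts over all genes moved by more than 1.5 times in some settings. With edgeR, 876 genes were called higher from day 1 to day 7, against 571. From day 7 to day 10, 334 and 216 genes were called higher and lower with edgeR and 377 and 175 with a pseudocount of 0.1. From day 10 to day 14 these were 504 and 227, and 425 and 246. In the sort, library size alone gave 316 and 963. The rise, fall and rise of C1qtnf12 was shared by 27 to 76 genes. Both tails came from 3 groups of cells, so they may share cultures, but the labels tie no replicate number to them. Same-numbered libraries did not all deviate together (correlations of -0.321, 0.22 and -0.0614), and the highest correlations were CD61 low 3 with CD61 high 1 (0.466) and low 1 with high 2 (0.257), so the numbers were not used as pairs. With replicate number as a block the sort gave 574 and 509 calls, C1qtnf12 had a Log2FC of 0.73 (edgeR adjusted p = 0.000763), and no call of a member changed. The zeros of C1qtnf2, C1qtnf4 and C1qtnf7 are limited by depth. That of C1qtnf5 during differentiation is uncertain, since the gene was detected in the shallower sorted libraries.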

Other observations

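The course of C1qtnf12, a called rise to day 7, fall to day 10 and rise to day 14, was described in the other 32 genes that met it; this pattern and the window below were chosen after the values were seen. The 4 genes named are those with the lowest ratio of the day 10 to the day 7 mean. Adm, the vasodilator peptide adrenomedullin, went from a mean of 4.25 CPM at day 7 to 0.180 at day 10 and 3.83 at day 14. Ankrd37 went from 41.4 to 3.78 and 19.2 CPM. Edn2, which encodes the vasoconstrictor endothelin 2, went from 1.60 to 0.179 and 2.68 CPM, and Igfbp2, a binding protein of insulin-like growth factors, from 19.7 to 2.88 and 9.34 CPM. Adm and Edn2 had day 1 means of 0.0756 and 0 CPM. They passed the filter of 1 CPM only through days 7 and 14, where the pattern needs them high, so nothing is read from their course. Such genes are counted in the pattern too. With a filter at a mean of 5 CPM, 27 of 10313 genes met it.

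Of the 33 genes, 9 lie on chromosome 4, which holds 6.40% of the genes tested. These 9 include C1qtnf12 itself and the 4 neighbours named next, so both counts rest in part on the same genes, and 4 lie elsewhere on the chromosome. Within 1000000 bases of C1qtnf12, 4 of 41 other tested genes (9.76%) met the pattern, against 0.259% of all genes. Over the alternatives the neighbours that met it numbered 2 to 4, with 2 without day 10 replicate 2 (4.88%). They were Vwa1, Tnfrsf18, Agrn and Plekhn1, at distances between 59534 and 254826 bases. Agrn, which encodes agrin of basement membranes, had means of 239, 1071, 499 and 1165 CPM at days 1, 7, 10 and 14. Tnfrsf18 had 1.04, 4.44, 1.24 and 5.55 CPM, Vwa1 2.19, 10.9, 4.38 and 29.8 CPM, and Plekhn1 6.49, 18.2, 8.52 and 39.8 CPM. The medians of all 41 neighbours in the 3 steps were 0.27, -0.24 and 0.16 on the log2 scale, against -0.05, 0.07 and -0.04 over all genes.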
